A study of Mus musculus with 16 samples.

Results

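ATP-binding cassette (ABC) transporters were followed in the livers of mice with and without the hepatic glucocorticoid receptor. The members were all genes on the array with a symbol from Abca to Abcg followed by a number, but for 1 gene that was left out, and each was read from its brightest probe over the 16 arrays. This gave 48 members of 27962 gene names, of which 15 belonged to subfamily A, 9 to B, 10 to C, 4 to D, 4 to E and F together and 6 to G. A filter on dim probes kept 39 members of 18598 genes for testing: 9 of A, 8 of B, 8 of C and all 4, 4 and 6 of the other subfamilies. The filter asked that the probe stand well above background on 3 or more arrays of some group of 4. Abca4, Abca13, Abca14, Abca15, Abca16, Abca17, Abcb5, Abcc10 and Abcc12 did not pass it.

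The study measured liver RNA on 1-colour Agilent whole mouse genome arrays, with 1 Cy3-labelled sample on each. The 4 groups of 4 arrays came from male C57BL/6 mice aged 3 months and were, in turn, GR knockout given dexamethasone, GR knockout without treatment, wild type given dexamethasone and wild type without treatment. Dexamethasone is a synthetic steroid that acts through the glucocorticoid receptor GR, encoded by Nr3c1. The treatment protocol calls the knockout a liver knockout and names a vehicle, while the sample sources speak of no treatment and the knockout titles also carry the letters PBS. The sources used here give neither what drives the deletion nor the dose, route or duration of dexamethasone. No label says that each replicate was a separate mouse, so p-values measure the spread between these samples.

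ABC transporters use the energy of ATP to move lipids, drugs, conjugates, peptides or metals across membranes, and in hepatocytes they line the bile canaliculus, the blood-facing membrane and the membranes of mitochondria, peroxisomes and lysosomes. A full transporter carries a pair of nucleotide-binding domains, supplied by 1 long protein or by a dimer of shorter ones. Subfamilies E and F have no membrane-spanning part and act on ribosomes.

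Abcg5 and Abcg8 encode the partners of a single sterol exporter, and they lie head to head. In RefSeq's promoter table for GRCm38.p6, which holds windows for 36 of the 48 members, the start of Abcg5 on the minus strand of chromosome 17 and that of Abcg8 on the plus strand are separated by 109 bases. The run between them, chr17:84683012-84683120 on the strand of Abcg8, is shown because both genes fell with dexamethasone in wild-type liver. Capitals mark AGAACA, the 6 letters of 1 arm of the glucocorticoid response element, and TATAAA read on the other strand.
Abcg5-Abcg8: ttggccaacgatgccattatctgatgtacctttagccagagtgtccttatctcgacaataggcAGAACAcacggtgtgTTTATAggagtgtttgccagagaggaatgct
Abca1, the member of the sterol group that moved the other way, is shown by the 250 bases before its start, chr4:53159896-53160145 on the minus strand, with the same letters in capitals.
Abca1: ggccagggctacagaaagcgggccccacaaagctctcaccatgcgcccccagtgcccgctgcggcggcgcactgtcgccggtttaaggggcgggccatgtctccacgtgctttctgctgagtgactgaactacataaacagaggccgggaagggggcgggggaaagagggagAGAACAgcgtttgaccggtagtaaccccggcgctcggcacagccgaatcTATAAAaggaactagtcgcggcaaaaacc
The AGAACA between Abcg5 and Abcg8 begins 46 bases before the start of Abcg8, and the letters of TATAAA on the other strand begin 31 bases before it. TATAAA reads on the strand of Abcg5, where it begins 84 bases before that gene's start, and the AGAACA letters begin 69 bases before it. Of the 11 members called in a dexamethasone comparison 9 had a window, 10 windows in all. AGAACA on either strand was in 3 of the 10 (Abca1, Abcg5 and Abcg8, the last 2 through the same 6 bases), beside 19% of all 32851 windows of the same length. TATAAA was in 4 (Abca1, Abcb6, Abcg5 and Abcg8, the last 2 again through the same 6 bases), beside 13.6%. The full palindrome, AGAACA then 3 letters of any kind then TGTTCT, was in 0 of the 10 and in 0.00913% of all windows, and AGGTCA repeated after 4 letters, a direct repeat that the sterol-sensing liver X receptors bind, was in 0 and in 0.0152%. Each was searched on both strands as exact letters, and a match describes the letters alone.

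Abcd2 showed the widest difference between genotypes among the members, and 1 of its probes holds codons for an ATP-binding loop. Probe A_51_P290526, the dimmer of 2 for Abcd2, spans an exon junction at chr15:91257273-91260826 of the mm7 build on the minus strand. Capitals mark the codons of the glycine-rich loop that holds ATP, searched on the probe's strand as GG, 7 letters of any kind, GG, 4 letters, GG, 1 letter and AA.
Abcd2: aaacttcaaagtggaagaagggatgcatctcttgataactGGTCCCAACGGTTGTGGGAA
These letters were in 2 of the 92 probes for members (2.17%), beside 0.068% of all 41174 probes. Of the 28 probes on the array that held them 2 were for members, so the letters are not particular to the family.

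Each member is given with the place its probe matches in the mm7 build used by the array's annotation, where exons and introns were not looked up. Levels below are log2 signals minus the array's 75th percentile, and differences are on the same log2 scale, fitted with limma over all 18598 genes. A member counts as called when its p, adjusted over all genes of a comparison by Benjamini-Hochberg, is under 0.05. That percentile was low on untreated knockout array 1 (295.8) and untreated wild-type array 4 (383.7), against 502.7 to 662.6 on the other 14. Untreated knockout array 1 correlated with its group at a mean r of 0.963 across genes, beside 0.975 to 0.98 for the other untreated knockout arrays. Because a slide carried arrays of 1 group and no other, a slide effect and a group effect cannot be told apart here. Nr3c1 was lower in knockout by 1.97 on the log2 scale with dexamethasone (log2 difference -1.97, SE 0.15) and at -1.99 without it (SE 0.15). All 7 hepatocyte markers on the array were above background in every group, and of these Cps1, Ass1 and Hnf4a were lower in treated knockout than in treated wild type, Cps1 was lower in untreated knockout than in untreated wild type, and Hnf4a rose with dexamethasone in wild type. Their summed signal, relative to the 75th percentile, ran from 1860 to 2140 in treated knockout, 2000 to 2420 in untreated knockout, 2250 to 2580 in treated wild-type and 2170 to 3030 in untreated wild-type livers. The treated genotypes did not overlap in it, and its part in the members' differences was not tested.

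In knockout liver 1 of the 39 members tested was called with dexamethasone, Abcc9, which rose, beside 3.55% of all genes (1.23% higher and 2.32% lower). There were 5 at an unadjusted p under 0.05, beside 16.7% of all genes. The groups did not overlap for 2 members, Abcc9 and Abce1, both higher, and for 0 lower, beside 4.37% and 5.25% of all genes. The median change was -0.01, beside 0.00 over all genes. The largest changes without a call were -0.54 for Abcg8 (SE 0.26, adjusted p = 0.312) and 0.58 for Abcb1a (SE 0.65, adjusted p = 0.717).

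In wild-type liver 11 of the 39 members were called with dexamethasone, 4 higher and 7 lower, beside 11.9% of all genes (5.21% higher and 6.69% lower). Abcd4, Abca1, Abcc9 and Abce1 rose, and Abcg5, Abcg8, Abcg3, Abcb9, Abcb10, Abcc6 and Abcb6 fell. The median change of the 39 was -0.25, beside -0.03 over all genes. At an unadjusted p under 0.05 there were 16, beside 26.3% of all genes. The groups did not overlap for 4 members in the higher and 9 in the lower direction, beside 9.58% and 12.6% of all genes. By subfamily the calls were 1 higher of 9 in A, 3 lower of 8 in B, 1 higher and 1 lower of 8 in C, 1 higher of 4 in D, 1 higher of 4 in E and F, and 3 lower of 6 in G. The count was 4 without treated wild-type array 1 and 7 without untreated wild-type array 2. With both arrays of low signal left out it was 12, 4 higher and 8 lower.

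The test of the difference between the responses, the interaction, called 0 of the 39 with limma, beside 4.55% of all genes (1.9% positive and 2.65% negative). At an unadjusted p under 0.05 there were 6, beside 16.6% of all genes. These were Abcd4 (-1.15, SE 0.39, adjusted p = 0.129), Abcb10 (0.81, SE 0.29, adjusted p = 0.138), Abcb9 (0.79, SE 0.22, adjusted p = 0.0574), Abcc6 (0.68, SE 0.21, adjusted p = 0.0905), Abca8b (0.76, SE 0.28, adjusted p = 0.17) and Abca1 (-0.71, SE 0.29, adjusted p = 0.215). A member called in wild type and not in knockout was therefore not shown to respond differently. With untreated wild-type array 4 left out the interaction called Abcb10 and Abcd4, without untreated knockout array 1 or 4 it called Abcb9, without treated knockout array 1 it called Abcc6, and with both arrays of low signal left out it called Abcb9, Abcb10 and Abcd4.

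**Figure D1:**
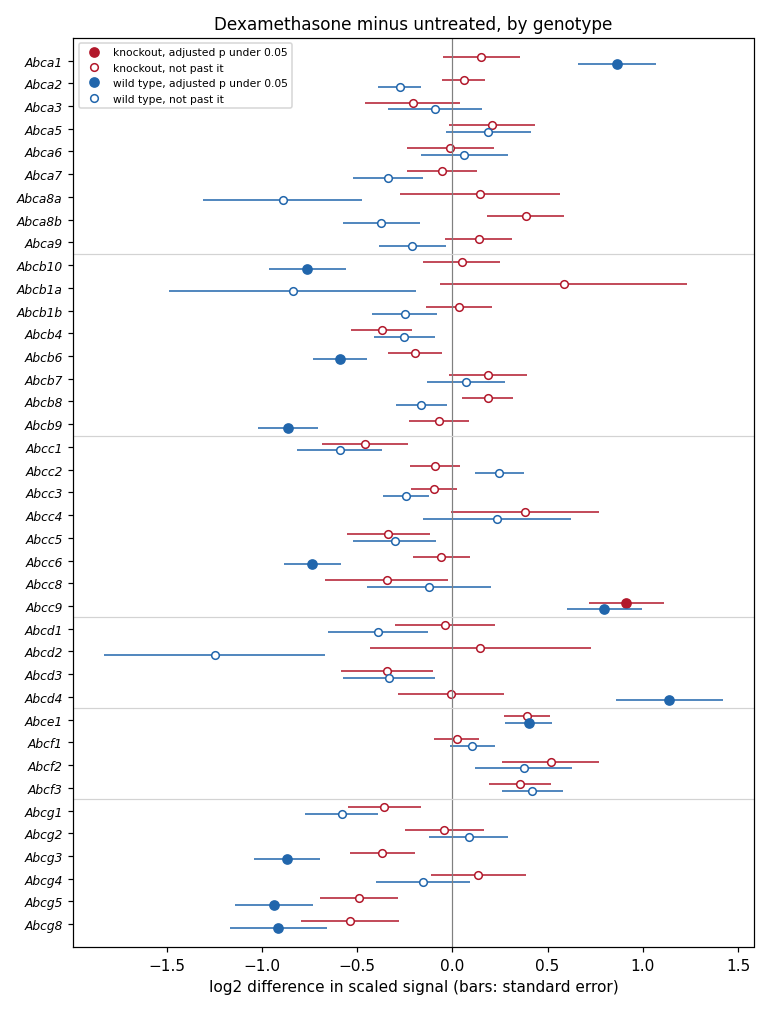
Change of each of the 39 tested members with dexamethasone (treated minus untreated, log2, horizontal axis), in knockout (red) and in wild-type livers (blue), ordered by subfamily from A at the top to G at the bottom. Filled points passed an adjusted p under 0.05, bars are standard errors, and 4 arrays stand behind each group. Knockout holds 1 filled point, Abcc9, and wild type 11, 4 to the right of 0 and 7 to the left.

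Receptor loss under dexamethasone was read from treated knockout against treated wild-type livers, and called 12 of the 39 members, 8 higher and 4 lower, beside 22.3% of all genes (14% higher and 8.3% lower). Abcd2, Abcb1a, Abcc4, Abcb9, Abcg4, Abcb10, Abca8b and Abcg3 were higher in knockout, and Abcd4, Abca6, Abca1 and Abcc2 lower. Abcb1a and Abcg4 passed the filter on dim probes only through knockout groups, where they were higher. Their directions in this count, and in subfamilies B and G below, were therefore partly fixed by the filter. A stricter filter on dim probes called 11, 7 higher and 4 lower, without Abcb1a. Abcg4 still passed that filter only through treated knockout, so its direction there stayed partly fixed. At an unadjusted p under 0.05 there were 18, beside 35% of all genes. The groups did not overlap for 10 members higher and 7 lower in knockout, beside 19.8% and 11.9% of all genes. The median difference was 0.29, beside 0.09 over all genes. By subfamily the calls were 1 higher and 2 lower in A, 3 higher in B, 1 higher and 1 lower in C, 1 higher and 1 lower in D, none in E and F, and 2 higher in G, where all 6 differences were positive. Under normexp background correction the split was 4 higher and 5 lower. The count was 6 without treated wild-type array 1, 7 without treated knockout array 2 and 6 without treated knockout array 3. With both arrays of low signal left out it was 18. The treated wild-type arrays also entered the wild-type response above, so the directions in these comparisons are not independent of each other.

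In untreated livers 1 of the 39 was called between the genotypes, Abcc4, which was higher in knockout, beside 2.84% of all genes (2.04% higher and 0.801% lower). The groups did not overlap for 3 members higher (Abcd2, Abcc8 and Abcc4) and 6 lower, beside 7.8% and 3.82% of all genes. The median difference was -0.06, beside 0.04 over all genes. This count was 0 with both arrays of low signal left out. At an unadjusted p under 0.05 there were 10 members, beside 19.4% of all genes.

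**Figure D2:**
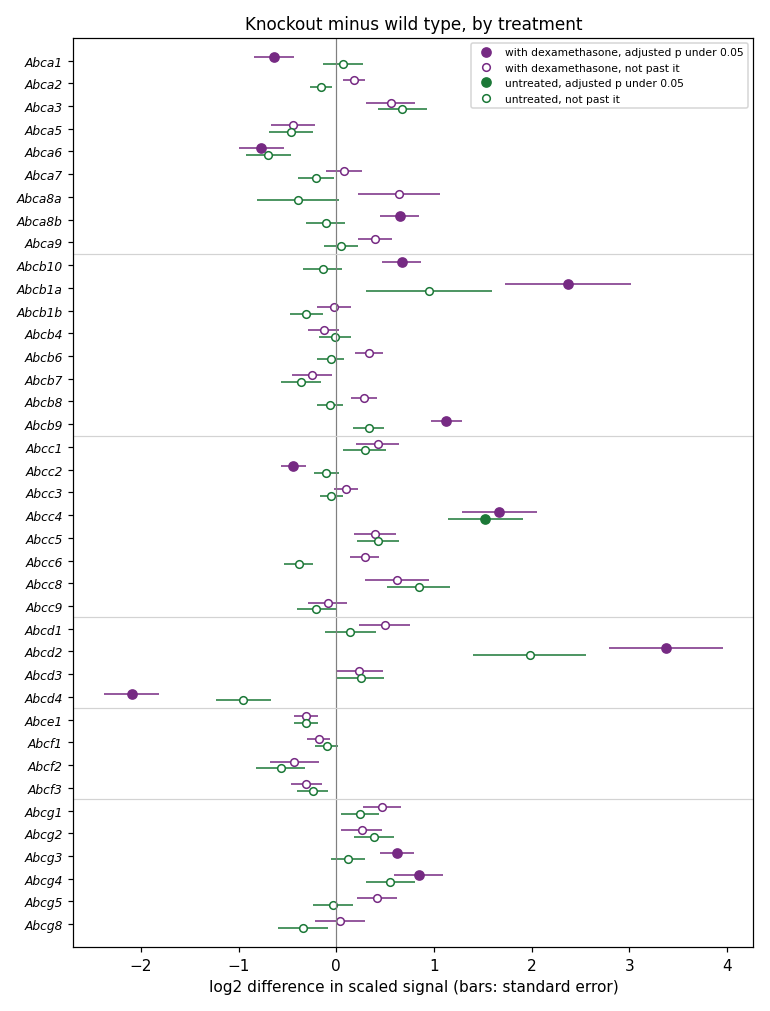
Knockout minus wild type for each of the 39 tested members (log2 difference, horizontal axis), with dexamethasone (purple) and untreated (green), ordered by subfamily. Filled points passed an adjusted p under 0.05, and bars are standard errors, with 4 arrays in each group. Abcd2 lies farthest to the right at 3.38 and Abcd4 farthest to the left at -2.10, both with dexamethasone, and the filled green point is Abcc4 at 1.53.

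Among the 7 exporters of sterols and phospholipids, all of them tested, dexamethasone in wild-type liver lowered Abcg5 and Abcg8 and raised Abca1. Abcg5 and Abcg8 pump cholesterol and plant sterols into bile, while Abca1 loads cholesterol and phospholipid onto apolipoprotein A-I to form high-density lipoprotein. In knockout liver 0 of the 7 were called, beside 3.55% of all genes, and 2 had an unadjusted p under 0.05, beside 16.7%. Abcg5, read at chr17:82952711-82952770 (minus strand), stood at 4.97, 5.70, 5.91 and 5.77 in treated knockout livers, 6.23, 6.16, 5.89 and 6.04 in untreated knockout livers, 4.81, 4.93, 5.41 and 5.54 in treated wild-type livers and 6.08, 6.29, 5.95 and 6.11 in untreated wild-type livers. The change in knockout was -0.49 (SE 0.20, adjusted p = 0.236), and the fall in wild type was 1.91-fold (log2 -0.94, SE 0.20, adjusted p = 0.00937). In knockout treated array 3 lay within the untreated range, while all treated wild-type arrays lay below all untreated ones.
Abcg8, read at chr17:82994253-82994312 (plus strand), stood at -1.50, -0.66, -0.37 and -0.03 in treated knockout livers, -0.58, 0.08, 0.03 and 0.06 in untreated knockout livers, -0.91, -0.88, -0.52 and -0.38 in treated wild-type livers and 0.34, 0.29, 0.23 and 0.09 in untreated wild-type livers. In knockout Abcg8 changed by -0.54 (SE 0.26, adjusted p = 0.312), and in wild type it fell 1.88-fold (log2 -0.91, SE 0.26, adjusted p = 0.0308), with no overlap. Treated knockout array 1 and untreated knockout array 1 were the lowest of their groups. The other passing probe for Abcg8, A_51_P298480, gave -0.22 in wild type (SE 0.32, adjusted p = 0.715), so its probes disagree. The call from the brighter probe was also lost with no filter on dim probes and without any of 6 arrays, treated wild-type 1, 2 or 3 or untreated wild-type 1, 2 or 3. Neither Abcg5 nor Abcg8 was called between the genotypes, at 0.42 and 0.04 with dexamethasone and -0.03 and -0.34 without it.

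Abca1, read at chr4:53044891-53044950 (minus strand), stood at 3.97, 4.09, 3.67 and 3.58 in treated knockout livers, 3.18, 4.11, 3.70 and 3.70 in untreated knockout livers, 4.87, 4.22, 4.31 and 4.45 in treated wild-type livers and 3.85, 3.49, 3.73 and 3.33 in untreated wild-type livers. It changed by 0.15 in knockout (SE 0.20, adjusted p = 0.771) and rose 1.82-fold in wild type (log2 0.86, SE 0.20, adjusted p = 0.0134). With dexamethasone it was lower in knockout than in wild type by 0.64 (log2 difference -0.64, SE 0.20, adjusted p = 0.0361). Each of the treated wild-type arrays lay above all arrays of the other 3 groups. Without treated wild-type array 1 the wild-type rise was 0.73 and its adjusted p = 0.0513. The difference between treated genotypes lost its call without treated knockout array 1, 3 or 4 or treated wild-type array 1 or 4. It also did so with no filter on dim probes, and over all 16 runs with 1 array left out it ran from -0.73 to -0.50.
Abcg1, which passes cholesterol to high-density lipoprotein and is known best from macrophages, was not called. Abcg1, read at chr17:29310847-29310906 (plus strand), stood at -0.17, 0.12, -0.20 and 0.06 in treated knockout livers, 0.91, 0.23, -0.18 and 0.28 in untreated knockout livers, -0.79, -0.31, -0.40 and -0.57 in treated wild-type livers and -0.01, 0.08, -0.07 and 0.26 in untreated wild-type livers. Its change was -0.36 in knockout (SE 0.19, adjusted p = 0.378) and -0.58 in wild type (SE 0.19, adjusted p = 0.063). All treated wild-type arrays were below all untreated ones. Abcg4, a close relative of Abcg1 known from brain, was dim. Abcg4, read at chr9:44207659-44207718 (minus strand), stood at -4.19, -4.27, -4.29 and -4.70 in treated knockout livers, -3.74, -5.03, -4.82 and -4.40 in untreated knockout livers, -5.27, -5.65, -4.87 and -5.03 in treated wild-type livers and -5.01, -4.94, -5.36 and -4.90 in untreated wild-type livers. It was above background on 4 treated knockout, 3 untreated knockout, 1 treated wild-type and 0 untreated wild-type arrays, and so passed the filter only through the knockout groups, where it was higher. The fitted difference between treated genotypes was 0.84 (SE 0.25, adjusted p = 0.0251), against a wild-type level mostly not above background. Under normexp background correction the difference was 0.50 and lost its call, as it did without treated knockout array 1, 2 or 3 or treated wild-type array 1 or 2. Abcb4, which flips phosphatidylcholine into bile, was not called in any of the 5 comparisons. Abcb4, read at chr5:8996752-8996811 (plus strand), stood at 7.15, 6.95, 7.01 and 6.93 in treated knockout livers, 7.74, 7.08, 7.38 and 7.32 in untreated knockout livers, 7.11, 6.83, 7.28 and 7.33 in treated wild-type livers and 7.31, 7.20, 7.34 and 7.72 in untreated wild-type livers. Its change with dexamethasone was -0.37 in knockout and -0.25 in wild type (SE 0.16 each, adjusted p = 0.252 and 0.34), and the ranges overlapped.

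**Figure D3:**
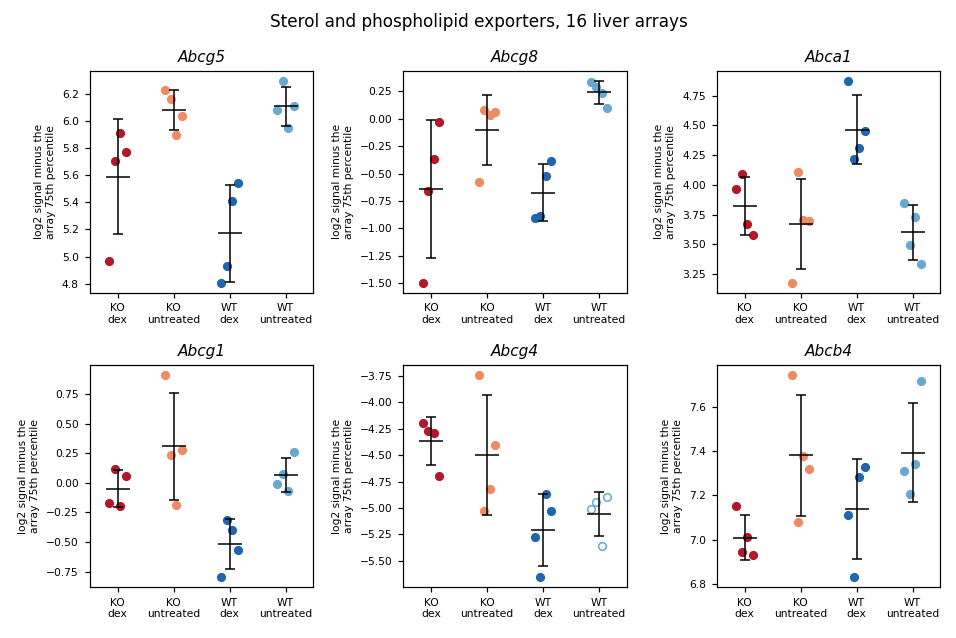
Levels of 6 sterol and phospholipid exporters on the 16 arrays (log2 signal minus the array's 75th percentile), by group. Points are arrays, bars the mean and SD of 4 arrays, and open points mark a group in which no array was above background (Abcg4, untreated wild type). Abcg5 and Abcg8 are lower, and Abca1 higher, on all treated than on all untreated wild-type arrays.

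The list of 30 genes of sterol sensing and flux, 28 of them tested, gives the setting of these exporters. With dexamethasone 1 of the 28 was called in knockout liver, Mylip, which rose by 1.08 (SE 0.16). In wild-type liver 2 rose, Insig2 and Mylip, and 6 fell. Srebf1 fell by 2.57 (log2 -2.57, SE 0.52), Stard4 by 2.04 (log2 -2.04, SE 0.28) and Insig1 by 1.11 (log2 -1.11, SE 0.27). Scap and Osbpl3 were also among those that fell. Insig2, a retainer of the sterol-regulated transcription factors in the endoplasmic reticulum, rose by 2.31 (SE 0.43), and Mylip, a ubiquitin ligase, by 0.78 (SE 0.16). The interaction called 4 positive, among them Srebf1, Insig1 and Stard4, and 1 negative, Insig2. Between genotypes 7 were higher and 5 lower in knockout with dexamethasone, and 1 was higher (Osbpl3) and 1 lower (Apoa1) without it. The share called was 3.57% in knockout with dexamethasone, 28.6% in wild type with dexamethasone, 17.9% for the interaction, 42.9% between treated and 7.14% between untreated genotypes, beside 3.55%, 11.9%, 4.55%, 22.3% and 2.84% of all genes. The list's median change in wild type was -0.10, beside -0.03 over all genes.

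Among the 9 tested of 11 drug and conjugate exporters, the sinusoidal exporter Abcc4, which carries bile acids and cyclic nucleotides, stood out in knockout liver. Abcc4, read at chr14:112885129-112885188 (minus strand), stood at -0.48, -0.67, 0.12 and 0.54 in treated knockout livers, -1.30, -0.44, -1.10 and 0.83 in untreated knockout livers, -1.86, -1.95, -1.85 and -1.52 in treated wild-type livers and -2.02, -2.12, -1.54 and -2.45 in untreated wild-type livers. It was higher in knockout by 3.18-fold with dexamethasone (log2 1.67, SE 0.39, adjusted p = 0.00734) and by 2.88-fold without it (log2 1.53, SE 0.39, adjusted p = 0.0494). All knockout arrays lay above all wild-type arrays of the same treatment. The difference with dexamethasone kept its call without any single array, while the untreated one lost it without any of 13 of the 16 arrays. Over all 16 runs with 1 array left out the untreated difference lay between 1.08 and 1.79. Its call was also lost under normexp, quantile normalization, no filter on dim probes, a fit of only the groups compared and the loss of both arrays of low signal (1.23 at the lowest). The lowest value with 1 array left out came without untreated knockout array 4, the highest array of its group. Dexamethasone did not pass the threshold for Abcc4 in knockout (0.38, SE 0.39) or in wild type (0.24, SE 0.39).
Abcb1a and Abcb1b encode the mouse P-glycoproteins, which pump out many drugs. Abcb1a, read at chr5:8785623-8785682 (plus strand), stood at -2.33, -4.99, -5.01 and -3.98 in treated knockout livers, -5.02, -5.29, -5.09 and -3.25 in untreated knockout livers, -7.14, -7.21, -6.42 and -5.00 in treated wild-type livers and -4.83, -5.32, -5.80 and -6.48 in untreated wild-type livers. Abcb1a was above background on 3 treated knockout, 2 untreated knockout, 0 treated wild-type and 1 untreated wild-type arrays. It passed the filter only through treated knockout, the group where it was highest, so its difference there was partly fixed by that choice. With treated wild-type levels raised to a floor, its mean was 2.1-fold higher in treated knockout than in treated wild-type livers. The floor is, on each treated wild-type array, the higher of the probe's own signal and the lowest signal among probes above background. The 2.1-fold takes no account of the spread between arrays. The call (limma, adjusted p = 0.0176) came from the fit without the floor and, given the filter, is not support for a difference. Treated knockout array 1 was the highest of all 16, treated wild-type array 4 lay within the range of the knockout arrays, and the call was lost without treated knockout array 1 or treated wild-type array 1 or 2, and under normexp, where the log2 difference was 0.83. Abcb1b, read at chr5:8899085-8899144 (plus strand), stood at 2.59, 2.17, 2.33 and 2.50 in treated knockout livers, 2.16, 2.17, 2.58 and 2.53 in untreated knockout livers, 2.36, 2.04, 2.73 and 2.54 in treated wild-type livers and 2.53, 2.50, 2.65 and 2.98 in untreated wild-type livers. The ranges overlapped in each comparison, and Abcb1b differed between genotypes by -0.02 with dexamethasone and -0.31 without it (SE 0.17 each), with no call. The transcripts of Abcb1a and Abcb1b are alike in sequence, and whether a probe reads both was not tested.

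Abcc2, the canalicular exporter of bilirubin conjugates, was lower in knockout under dexamethasone by 0.44 (log2 -0.44, SE 0.13, adjusted p = 0.0255). Abcc2, read at chr19:43731462-43731521 (plus strand), stood at 4.15, 4.02, 4.09 and 4.11 in treated knockout livers, 3.97, 4.49, 4.01 and 4.28 in untreated knockout livers, 4.45, 4.34, 4.58 and 4.77 in treated wild-type livers and 4.34, 4.32, 4.20 and 4.29 in untreated wild-type livers. The treated groups did not overlap. The call was lost without treated knockout array 2 or 3 or treated wild-type array 3 or 4, and with no filter on dim probes. Over all 16 runs with 1 array left out the difference ran from -0.51 to -0.36. Abcc6, a hepatocyte transporter whose loss leads to calcification of soft tissue, fell with dexamethasone in wild type. Abcc6, read at chr7:42153654-42155902 (minus strand), stood at 0.69, 1.21, 1.27 and 1.46 in treated knockout livers, 1.15, 1.16, 1.32 and 1.24 in untreated knockout livers, 0.73, 0.69, 1.11 and 0.93 in treated wild-type livers and 1.57, 1.68, 1.61 and 1.54 in untreated wild-type livers. In knockout the change was -0.06 (SE 0.15, adjusted p = 0.893). The fall in wild type was 1.67-fold (log2 -0.74, SE 0.15, adjusted p = 0.00614), and it kept its call without each array in turn and under every other alternative tried. All treated wild-type arrays lay below all untreated ones, and treated knockout array 1 was the lowest of its group.
Abcc3, an exporter of glucuronides into blood, and Abcg2, a canalicular exporter of drugs and sulfates, were not called in any comparison. Abcc3, read at chr11:94452396-94452455 (minus strand), stood at 5.53, 5.87, 5.87 and 5.70 in treated knockout livers, 5.71, 5.91, 5.99 and 5.75 in untreated knockout livers, 5.53, 5.46, 5.78 and 5.81 in treated wild-type livers and 5.82, 5.94, 5.87 and 5.93 in untreated wild-type livers. Its change with dexamethasone was -0.09 in knockout and -0.25 in wild type (SE 0.12 each), and the wild-type groups did not overlap. Abcg2, read at chr6:58658701-58660383 (plus strand), stood at 4.84, 4.94, 5.07 and 4.37 in treated knockout livers, 4.45, 5.25, 4.76 and 4.94 in untreated knockout livers, 4.85, 4.22, 4.51 and 4.60 in treated wild-type livers and 4.62, 4.25, 4.78 and 4.19 in untreated wild-type livers. The groups overlapped in every comparison, and the difference between genotypes was 0.26 with dexamethasone and 0.39 without it (SE 0.21 each).

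**Figure D4:**
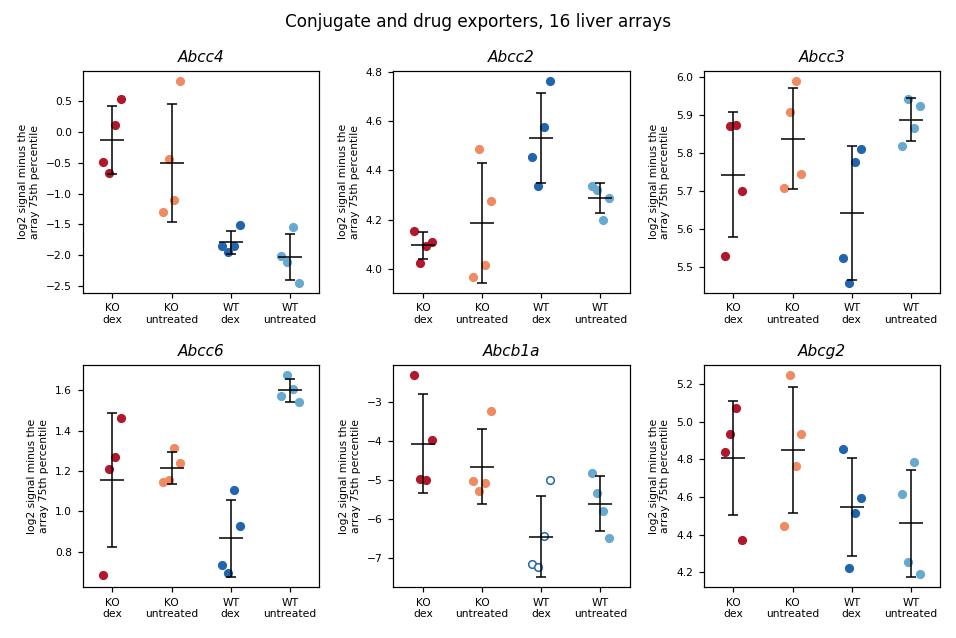
Levels of 6 conjugate and drug exporters on the 16 arrays (log2 signal minus the array's 75th percentile), by group. Points are arrays, bars the mean and SD of 4 arrays, and open points mark a group with no array above background (Abcb1a, treated wild type). The knockout arrays of Abcc4 lie between -1.30 and 0.83 and the wild-type arrays between -2.45 and -1.52.

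The 25 genes of drug-sensing receptors and their classic targets, 23 tested, held 0 called with dexamethasone in knockout, beside 3.55% of all genes. There 2 had an unadjusted p under 0.05, beside 16.7% of all genes. Called in wild type were 1 higher and 4 lower. In wild type Cyp2b10, an oxygenase induced by the receptor CAR, rose by 4.22 (SE 0.83), and CAR itself, Nr1i3, fell by 0.94 (log2 -0.94, SE 0.27). Ppara, Keap1 and Gclm fell as well. Limma called 0 of the 23 for the interaction, beside 4.55% of all genes, with 3 at an unadjusted p under 0.05, beside 16.6%. Between untreated genotypes it called 0, beside 2.84% of all genes, with 2 unadjusted, beside 19.4%. With dexamethasone 4 were higher in knockout (Nfe2l2, Ppara, Cyp2c55 and Gclc) and 2 lower (Ahr and Cyp2b10). The share called was 21.7% with dexamethasone in wild type and 26.1% between treated genotypes, beside 11.9% and 22.3% of all genes. Nfe2l2, the regulator of antioxidant genes, was higher by 0.98 (SE 0.20).

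The widest difference of the family was at Abcd2, a peroxisomal importer of very long-chain fatty acids. It was higher in knockout than in wild-type livers 10.4-fold under dexamethasone (log2 3.38, SE 0.58, adjusted p = 0.00114), and by 1.98 without it, which was not called (SE 0.58, adjusted p = 0.0788). Abcd2, read at chr15:91228720-91228779 (minus strand), stood at -2.29, -1.41, -1.23 and -0.65 in treated knockout livers, -2.25, -1.68, -1.14 and -1.12 in untreated knockout livers, -6.26, -5.04, -4.55 and -3.24 in treated wild-type livers and -4.24, -3.07, -2.40 and -4.38 in untreated wild-type livers. The genotypes did not overlap in either treatment. In treated wild type 2 of 4 arrays were above background, and under normexp background correction the difference with dexamethasone was 1.73, still called. The second probe, printed above, gave 3.53 with dexamethasone (SE 0.66, adjusted p = 0.00203) and 1.38 without it (SE 0.66, adjusted p = 0.282). The other 2 peroxisomal members lay between 0.24 and 0.50 with dexamethasone, with no call.
Abcd4, which moves cobalamin out of lysosomes, went the other way. Abcd4, read at chr12:82602790-82602849 (minus strand), stood at 1.16, 1.49, 1.17 and 1.22 in treated knockout livers, 1.63, 1.06, 1.09 and 1.28 in untreated knockout livers, 3.66, 3.58, 3.35 and 2.84 in treated wild-type livers and 2.23, 2.19, 1.39 and 3.07 in untreated wild-type livers. With dexamethasone it changed by -0.01 in knockout (SE 0.28, adjusted p = 0.995) and rose 2.20-fold in wild type (log2 1.14, SE 0.28, adjusted p = 0.016). In knockout it was 4.28-fold lower under dexamethasone (log2 -2.10, SE 0.28, adjusted p = 0.000204) and at -0.95 without it (SE 0.28, adjusted p = 0.0799). The treated genotypes did not overlap. Untreated wild-type array 4, at 3.07, lay within the treated wild-type range, and without treated wild-type array 1 the rise was 0.86 and its adjusted p = 0.0568. The rise was not called either when only the 2 wild-type groups were fitted.

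Abcb9, a peptide transporter of the lysosomal membrane, fell with dexamethasone in wild type and was higher in treated knockout. Abcb9, read at chr5:123307711-123307770 (minus strand), stood at 1.52, 1.58, 1.45 and 1.26 in treated knockout livers, 1.75, 1.40, 1.18 and 1.78 in untreated knockout livers, 0.48, 0.30, 0.51 and 0.02 in treated wild-type livers and 1.24, 1.32, 0.97 and 1.24 in untreated wild-type livers. The change in knockout was -0.07 (SE 0.16, adjusted p = 0.869), and the fall in wild type was 1.82-fold (log2 -0.86, SE 0.16, adjusted p = 0.0031). Treated knockout exceeded treated wild type 2.18-fold (log2 1.13, SE 0.16, adjusted p = 0.000276). All treated wild-type arrays lay below the arrays of the other 3 groups, and both calls held under every alternative run and without each array in turn.
Of the 4 mitochondrial members Abcb6 and Abcb10 fell in wild type. Abcb6 is linked to porphyrin transport and Abcb10 lies in the inner membrane and serves heme synthesis. Abcb6, read at chr1:75395105-75395164 (minus strand), stood at 3.79, 3.91, 4.01 and 3.91 in treated knockout livers, 4.13, 4.05, 3.90 and 4.34 in untreated knockout livers, 3.37, 3.40, 3.64 and 3.88 in treated wild-type livers and 4.05, 4.21, 3.98 and 4.39 in untreated wild-type livers. Its change was -0.20 in knockout (SE 0.14, adjusted p = 0.546), against a 1.51-fold fall in wild type (log2 -0.59, SE 0.14, adjusted p = 0.0142), with no overlap. The call was lost without treated wild-type array 1 and under normexp. Abcb10, read at chr8:122540242-122540301 (minus strand), stood at -0.44, 0.27, 0.08 and 0.24 in treated knockout livers, -0.18, 0.13, 0.07 and -0.07 in untreated knockout livers, -0.61, -0.44, -0.60 and -0.89 in treated wild-type livers and 0.35, 0.33, 0.32 and -0.48 in untreated wild-type livers. Abcb10 changed by 0.05 in knockout (SE 0.20, adjusted p = 0.938) and fell 1.69-fold in wild type (log2 -0.76, SE 0.20, adjusted p = 0.0236), and in treated livers it was higher in knockout by 0.67 (SE 0.20, adjusted p = 0.0278). Untreated wild-type array 4 lay among the treated wild-type arrays, treated knockout array 1 overlapped them by less than 0.01, and both calls were lost without treated wild-type array 1, 3 or 4. The wild-type fall also lost its call without untreated wild-type array 1, 2 or 3, and the difference between treated genotypes without treated knockout array 2, 3 or 4 and with no filter on dim probes. The second brightest probe called neither. The other 2 mitochondrial members changed by between -0.16 and 0.07 in wild type, with no call.

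**Figure D5:**
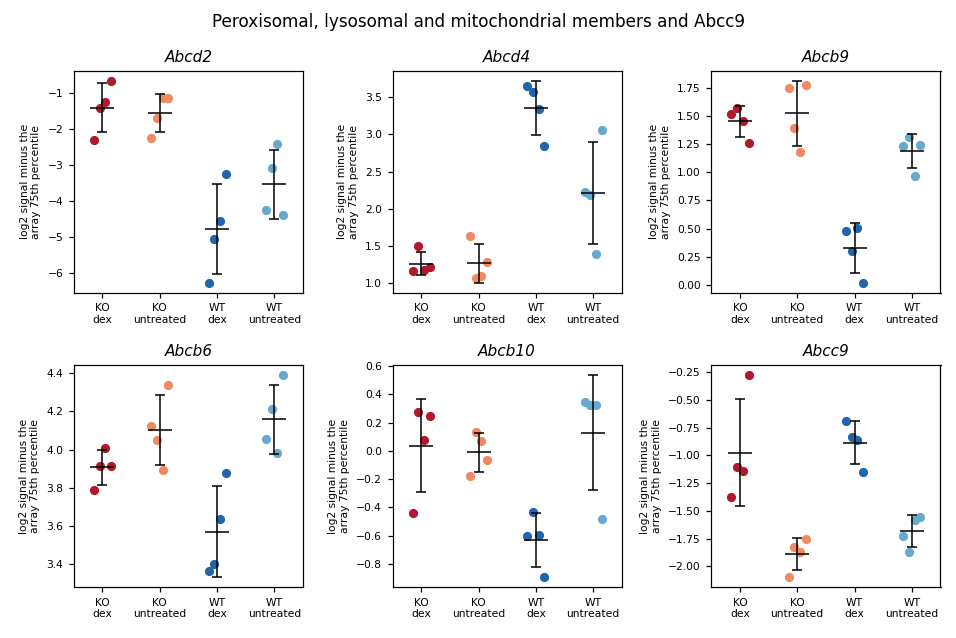
Levels of Abcd2, Abcd4, Abcb9, Abcb6, Abcb10 and Abcc9 on the 16 arrays (log2 signal minus the array's 75th percentile), by group. Points are arrays and bars the mean and SD of 4 arrays. Treated wild-type livers have the lowest mean for Abcb9 and the highest for Abcd4, and for Abcc9 all treated arrays of each genotype lie above the untreated ones.

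Abcc9, the regulatory subunit of an ATP-sensitive potassium channel, was the member called in both genotypes. Abcc9, read at chr6:142676908-142676967 (minus strand), stood at -1.37, -1.11, -1.14 and -0.28 in treated knockout livers, -2.10, -1.83, -1.88 and -1.76 in untreated knockout livers, -0.69, -0.84, -0.86 and -1.15 in treated wild-type livers and -1.73, -1.87, -1.58 and -1.56 in untreated wild-type livers. It rose 1.88-fold in knockout (log2 0.91, SE 0.20, adjusted p = 0.0208) and 1.74-fold in wild type (log2 0.80, SE 0.20, adjusted p = 0.016), with no overlap in either. The knockout call held without each array in turn but was lost under normexp, with the mean of all passing probes and with only the groups compared (0.65 at the lowest). The wild-type call was lost under normexp (0.57) and without treated array 1 or untreated array 2 (0.73 at the lowest). The interaction was 0.11 (SE 0.28, adjusted p = 0.922). The next probe for Abcc9 rose by 0.90 in knockout and 0.72 in wild type and was called in both, while the dimmest gave 0.14 and 0.47 with no call. The summed signal of 8 stellate cell markers, relative to the 75th percentile, ran from 73.2 to 84.7 in treated and 71.8 to 90.6 in untreated knockout livers, and from 86.2 to 100 in treated and 65.3 to 104 in untreated wild-type livers. With dexamethasone limma called 0 of the 8 in either genotype, beside 3.55% of all genes in knockout and 11.9% in wild type. At an unadjusted p under 0.05 there were 2 in knockout and 0 in wild type, beside 16.7% and 26.3%. The summed signal of 7 endothelial markers ran from 20.3 to 29.3 and from 29.6 to 43.3 in treated and untreated knockout livers, and from 19.8 to 25.2 and from 27.9 to 39.8 in treated and untreated wild-type livers. Of the 7, 1 was called, Kdr, lower in each genotype, beside the same 3.55% and 11.9% of all genes. Their part in the rise of Abcc9 was not tested. In whole liver, fewer cells of a type and less RNA per cell cannot be told apart.
The 8 tested markers of Kupffer cells and macrophages summed to between 53.3 and 96.4 in treated knockout, 70.1 and 140 in untreated knockout, 36.3 and 63.5 in treated wild-type and 55.8 and 76.5 in untreated wild-type livers. Cholangiocyte markers, 6 on the array, summed to between 15.2 and 66.9, 14.3 and 52.9, 11 and 20.9, and 12.3 and 17.3 in the same 4 groups. Of the 5 cholangiocyte markers tested, 2 had positive and 3 negative differences in treated knockout against treated wild type (median -0.04), with Krt7 called lower and Spp1 the most positive at 1.00 with no call, and Sox9 rose with dexamethasone in wild type. Limma called 0 of the 8 Kupffer cell markers in each comparison. That stood beside 22.3% of all genes between treated genotypes, 2.84% between untreated ones and 3.55% to 11.9% in the other comparisons. Their median was 0.41 between treated and 0.48 between untreated genotypes, with 8 of 8 positive in both. At an unadjusted p under 0.05 there were 2 and 4, beside 35% and 19.4% of all genes. The part of such cells in Abcd2, Abcc4 and Abcb1a was not tested. Of 4 B cell markers 2, Cd79b and Ms4a1, fell with dexamethasone in each genotype, beside 3.55% of all genes called in knockout and 11.9% in wild type.

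Subfamilies E and F, which recycle and regulate ribosomes, had positive changes with dexamethasone for 4 of 4 members in both genotypes by the brightest probe. Limma called 0 of the 4 in knockout and 1 in wild type, beside 3.55% and 11.9% of all genes. The 4 changed by 0.02 to 0.52 in knockout (median 0.38) and by 0.11 to 0.42 in wild type (median 0.39), and the call was Abce1 in wild type. Abce1, read at chr8:78224193-78224251 (minus strand), stood at 3.58, 3.53, 3.22 and 3.11 in treated knockout livers, 2.77, 3.11, 3.03 and 2.96 in untreated knockout livers, 3.65, 3.71, 3.72 and 3.62 in treated wild-type livers and 3.25, 3.18, 3.34 and 3.33 in untreated wild-type livers. Abce1, which splits ribosomes after translation ends, changed by 0.39 in knockout (SE 0.12, adjusted p = 0.0931) and rose 1.32-fold in wild type (log2 0.40, SE 0.12, adjusted p = 0.0448). Treated and untreated arrays did not overlap in either genotype. The call was lost without any of 12 of the 16 arrays, under normexp, with no filter on dim probes and with the mean of all passing probes. The second probe for Abce1 was negative in both genotypes, at -0.06 in knockout and -0.02 in wild type. Between genotypes the 4 members lay between -0.43 and -0.18 with dexamethasone and between -0.57 and -0.10 without it, with no call.
In the rest of subfamily A, Abca6 was lower in treated knockout and Abca8b higher. Abca6, read at chr11:110289291-110289350 (minus strand), stood at 1.75, 2.09, 2.11 and 2.26 in treated knockout livers, 1.23, 2.25, 2.26 and 2.49 in untreated knockout livers, 2.67, 2.56, 2.89 and 3.16 in treated wild-type livers and 2.66, 2.62, 2.80 and 2.93 in untreated wild-type livers. The difference was -0.77 with dexamethasone (SE 0.23, adjusted p = 0.0268) and -0.69 without it (SE 0.23, adjusted p = 0.116), and the genotypes did not overlap in either treatment. The call with dexamethasone was lost without treated knockout array 1, 2 or 3 or treated wild-type array 3 or 4. The second probe for Abca6 was called in both, at -0.76 with and -0.77 without dexamethasone (SE 0.18 each, adjusted p = 0.00948 and 0.0427). Abca8b, read at chr11:110044772-110044831 (minus strand), stood at 1.41, 0.91, 1.19 and 1.34 in treated knockout livers, 0.57, 1.08, 1.20 and 0.48 in untreated knockout livers, 0.45, 0.54, 0.65 and 0.62 in treated wild-type livers and 0.83, 1.01, 1.40 and 0.50 in untreated wild-type livers. Its difference with dexamethasone was 0.65 (SE 0.20, adjusted p = 0.0314), with no overlap, and the second probe gave 0.17 (SE 0.36, adjusted p = 0.794). The call was lost without any of 7 treated arrays, all but knockout array 2, and under normexp, with no filter on dim probes and with the mean of all passing probes. The other 6 tested members of subfamily A apart from Abca1 were not called, with changes from -0.21 (Abca3) to 0.21 (Abca5) in knockout and from -0.89 (Abca8a) to 0.19 (Abca5) in wild type.
Abcg3, a rodent relative of Abcg2, was dim. Abcg3, read at chr5:104070238-104070297 (minus strand), stood at -4.66, -4.54, -4.68 and -4.69 in treated knockout livers, -3.87, -4.44, -4.58 and -4.21 in untreated knockout livers, -5.45, -5.20, -5.03 and -5.38 in treated wild-type livers and -4.33, -4.72, -4.51 and -4.02 in untreated wild-type livers. In knockout it changed by -0.37 (SE 0.17, adjusted p = 0.301), and in wild type it fell 1.83-fold (log2 -0.87, SE 0.17, adjusted p = 0.00511). With dexamethasone it was higher in knockout by 0.62 (SE 0.17, adjusted p = 0.0189). It was above background on 1 treated wild-type array and on all arrays of the other groups, and under normexp background correction the wild-type change was -0.30 and the difference between treated genotypes 0.35, neither called. That difference also lost its call under quantile normalization, with trended robust variance and without treated knockout array 2 or treated wild-type array 1. In subfamily C the 3 tested members not described above changed by between -0.46 (Abcc1) and -0.34 in knockout and between -0.59 and -0.12 in wild type, with no call.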

How the data were processed

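Samples of liver RNA were read on 1-colour arrays. Per the submitters' processing notes, spots were extracted with Feature Extraction 9.5, and the deposited scanner files give for each spot an intensity, background-corrected (processed) or raw. Other deposited columns flag spots as above background, saturated or outlying, per the file headers. The authors' series table repeats the processed intensity (largest difference 0).

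Control spots and 2121 outlying spots (0.306%) were left out, spots of 1 probe were averaged, and log2 signals were centred on each array's 75th percentile. Each gene name was read from its brightest probe. Limma 3.58.1 in R 4.3.3 fitted a mean per group, with 12 residual degrees of freedom over 16 arrays, with 5 two-sided contrasts, adjusted over 18598 genes. The fit was tested on simulated data. Figures used matplotlib 3.10.9 in Python 3.11.15. Array number limits the precision of each value.

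Members, lists and tests were chosen with earlier results of these data known. Given in full were members called in any comparison, and Abcg5, Abcg8, Abca1, Abcg1, Abcb4, Abcc2, Abcc3, Abcc4, Abcc6, Abcg2, Abcb1a and Abcb1b. Other tested members were given by subfamily as counts and ranges, and members failing the filter by name. Some genes are not reported here. Alternatives were normexp (offset 50), other normalizations, filters, probe choices, variance models, a replicate block, only the groups compared, the series table and each array left out. Leaving out both arrays of low signal, the second brightest probe and the search of probes for the loop's codons were added after the data were seen. Marker lists covered hepatocytes, cholangiocytes, Kupffer, endothelial, stellate, B, and T and NK cells. The T and NK list had 1 of 4 tested members called with dexamethasone in each genotype, beside 3.55% of all genes in knockout and 11.9% in wild type. The genes differed. Cd3g was lower in wild type. Cd3e was lower in knockout (-0.92), stood at 0.19 in wild type, and its interaction was called (-1.10). Protein sequences were not used here.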

Additional observations from a re-analysis of the deposited data

Results flagged for a closer look

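In 3 of 92 groups of 4 arrays, over the 23 members given in full, 1 array stood apart from the other 3 by Dixon's ratio of gap to range, and chance flags about 1 in 20 such groups. Abcg8 was at -0.58 on untreated knockout array 1, against 0.03 to 0.08 on the other untreated knockout arrays. That array also had the lowest 75th percentile of the signal. Abcb1a was at -3.25 on untreated knockout array 4, against -5.29 to -5.02 on the others of its group. Abcb10 was at -0.48 on untreated wild-type array 4, against 0.32 to 0.35 on the others of its group.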

How the results depend on the processing

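Of 25 calls of a member in a comparison, 9 held without each of the 16 arrays in turn, 9 held under every other alternative, and 7 held under all: Abcg5, Abcc6 and Abcb9 with dexamethasone in wild type, and Abcc4, Abcd4, Abcb9 and Abcd2 between the treated genotypes. The cause of the changes below was not tested. With 1 array left out, the members called numbered 1 for dexamethasone in knockout (1 to 1), 4 to 14 in wild type, 0 to 2 for the interaction, 6 to 18 between treated genotypes and 0 to 1 between untreated genotypes. Normexp background correction gave 0, 7, 0, 9 and 0 in the same order, and over all genes 59, 1202, 99, 2371 and 85, against 660, 2213, 847, 4145 and 529. Array weights gave 1, 15, 6, 22 and 6 members, and 2101, 5094, 2978, 6793 and 2085 genes. Fitting only the groups compared gave 0 members in knockout and 0 between untreated genotypes (130 and 78 genes). The mean of all passing probes gave 0 in knockout and 2 between untreated genotypes (Abca6 and Abcc4), as did the second brightest probe there (2), which also turned Abce1 in wild type to -0.016. Trended robust variance called 1 for the interaction (Abcb9). Quantile normalization and no filter on dim probes gave 0 between untreated genotypes, quantile normalization 1101 genes in knockout, and no filter 407, 550 and 268 genes in knockout, for the interaction and between untreated genotypes. Without both arrays of low signal the members numbered 1, 12, 3, 18 and 0, and the genes 1102 in knockout, 3426 in wild type and 1533 for the interaction. With 1 array left out, genes called ranged from 304 to 954 in knockout, 1223 to 3312 in wild type, 481 to 1511 for the interaction and 152 to 630 between untreated genotypes. Replicate numbers were not taken as pairs in the main fit, since no label names a pairing. Of 24 same-numbered pairs of arrays, 10 correlated above 0.1 in their deviations (-0.185 to 0.348, median 0.076). In 12 of the 24 the array correlated best with its own number among the 4 arrays of the other group. Replicate number matched array position on the slide, and what lies behind these correlations was not tested. The replicate block called 1, 10, 0, 11 and 3 members, the last being Abca6, Abcc4 and Abcd2. Under it Abca1 between treated genotypes and Abce1 with dexamethasone in wild type were not called. Slide could not be fitted, since each slide held 1 group. Members near background, such as Abcb1a, Abcg3 and Abcg4, are limited by signal over background.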

Other observations

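Several members are neighbours in the RefSeq order of protein-coding genes. On chromosome 11 Abca8b, Abca8a, Abca9, Abca6 and Abca5 follow each other, and their differences between treated genotypes had both signs. Abca8b and Abca6 were called in opposite directions, and Abca8a, Abca9 and Abca5 stood at 0.65, 0.40 and -0.44 with no call. The second probe for Abca8b gave 0.17 with no call, and differences between neighbours were not tested. On chromosome 5 Abcb1a, Abcb1b and Abcb4 are adjacent. In the same comparison Abcb1b and Abcb4 were at -0.02 and -0.13 with no call. Abcb1a passed the filter on dim probes only through treated knockout, where it was highest. Its call there therefore does not show that it differed from its neighbours.

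Besides Abca6, dimmer probes of Abca3 and Abcc1 gave calls that the brightest probe did not, and they were picked after their values were seen. For Abca3, a lipid transporter known from lung surfactant, probe A_51_P427317 changed by -0.73 with dexamethasone in wild type (SE 0.18, adjusted p = 0.0201) and stood 1.06 higher in treated knockout (SE 0.18, adjusted p = 0.00133), where the brightest probe gave -0.09 and 0.56. For Abcc1, an exporter of glutathione conjugates, probe A_52_P491507 gave -1.02 and 1.02 in those comparisons (SE 0.30 each, adjusted p = 0.0404 and 0.0271), where the brightest gave -0.59 and 0.42.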
